A study of Mus musculus with 8 samples.

Results

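In 2 libraries of alveolar macrophages grown outside the body, 55 genes were counted that were almost without counts in the same cell type taken from lung. The genes were chosen by their measured counts. Each had at least 30 counts in both libraries of cultured cells and no more than 5 counts summed over the 6 libraries of cells sorted from lung, with no scaling for depth. Uty, Kdm5d, Eif2s3y and Ddx3y, which lie on the Y chromosome, were left out by name. The 55 genes were 55 of 37310 rows of the count table, and 0.557% of the 9883 genes with at least 30 counts in both libraries of cultured cells. Because the difference between cultured and lung cells chose them, that difference is described below for these genes and not tested.

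The cultured cells (exAM) were expanded alveolar macrophages of wild-type C57BL/6 mice after 2 months in culture, and they were not sorted. Never-cultured transplanted cells (tAM) and transplanted expanded cells (texAM) were of the same C57BL/6 strain, marked by the CD45.2 allele, and had spent 4 months in the lungs of C57Bl/6-Ly5.1 recipients. Host cells (HostAM) were the Ly5.1 strain's own CD45.1 alveolar macrophages, and the labels do not say whether those mice had received cells. All 3 lung groups were sorted from whole lung as SiglecF-positive, CD11c-positive single cells. Donors and recipients were 8 weeks old at the start. Each group had 2 libraries of polyA and random-primed RNA-seq, each from a pool of 3 mice or cultures, so a single animal was never the unit. Library totals ran from 6546272 (exAM 1) to 9154128 (texAM 1) counts, and the 2 exAM libraries were the least deeply sequenced. In bulk RNA, a small share of cells with much of a transcript and many cells with little of it cannot be told apart, and fewer cells and less RNA per cell cannot be told apart in the lung groups either.

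Alveolar macrophages are the resident phagocytes of the airspaces, which clear inhaled particles and surfactant lipids and renew themselves in place. Most of the 55 genes are known from other tissues. Caseins are the calcium-binding proteins of milk, secreted by the lactating mammary gland under prolactin. Neuropeptides, SNARE proteins and ligand-gated channels serve release and reception of signals at nerve endings. Fibrillar collagens, periostin and fibulins are laid down by mesenchymal cells, and VE-cadherin joins endothelial cells to each other. The identity of the cultured cells was checked on 18 markers of alveolar macrophages, and none was at 0 in both exAM libraries. Pparg, the nuclear receptor that sets up these cells, had 1410 and 1519 counts in exAM and 1556 to 2056 in the lung libraries. Marco, a scavenger receptor, had 3034 and 3053 counts in exAM and 1824 to 2224 in lung. The markers were not all kept at lung levels. For genes outside the 55, exAM was tested against tAM by edgeR's quasi-likelihood test over 14537 genes, called at a Benjamini-Hochberg adjusted p of 0.05, and 21.5% of all genes were called higher and 23.2% lower in exAM. Of the 18 markers, 10 were called higher and 3 lower. Some markers had near-equal counts in all 8 libraries: Lyz2 had 2077 to 2137, Chil3 2135 to 2208 and Cd68 2243 to 2285. Because the exAM libraries were the smallest, scaling by library size raises such genes in exAM. The part of this in the 10 higher calls was not tested. Krt79, a keratin of these cells, had 1435 to 1793 counts in the lung libraries and 13 and 8 in exAM (log2 fold change over tAM -6.85, adjusted p 4.68e-08 by edgeR). Siglecf, a marker on which the lung cells were sorted, had 2657 to 2863 counts in lung and 1330 and 933 in exAM (log2 fold change -0.86, adjusted p 0.00246 by edgeR). Ptprc, CD45, fell by 0.63 on the log2 scale (adjusted p 5.25e-04 by edgeR).

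By known function, the 55 genes fell into 3 milk caseins, 16 genes of neural signalling, synapse and adhesion, 4 of striated muscle and the contractile apparatus, 11 of matrix, mesenchyme and endothelium, 6 proteases, inhibitors and genes of skin and liver, 5 of transport, hormones and signalling, and 10 others. This grouping was made after the genes were known. The milk group had the fewest genes and summed to 352.8 and 369.7 CPM (counts scaled by TMM effective library size) in exAM 1 and exAM 2. The 16 neural genes summed to 353.3 and 387.1 CPM, and the 11 genes of matrix and endothelium to 390.0 and 403.1 CPM. Together the 55 genes took 10792 of the counts of exAM 1 (0.165%) and 11197 of those of exAM 2 (0.157%). The load was uneven. Csn2 alone held 17.7% of those counts, and the 5 highest genes held 42.1%. Mean levels in exAM ran from 5.05 to 317.5 CPM, with a median of 20.1, and 28 genes reached 20 CPM. Relative to transcript length the genes were below the middle of what these cells express. Their median was 6.22 CPM per kb of transcript against 8.55 over 14553 genes counted in both exAM libraries, and 21 of the 54 genes with a length lay above that.

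**Figure D1:**
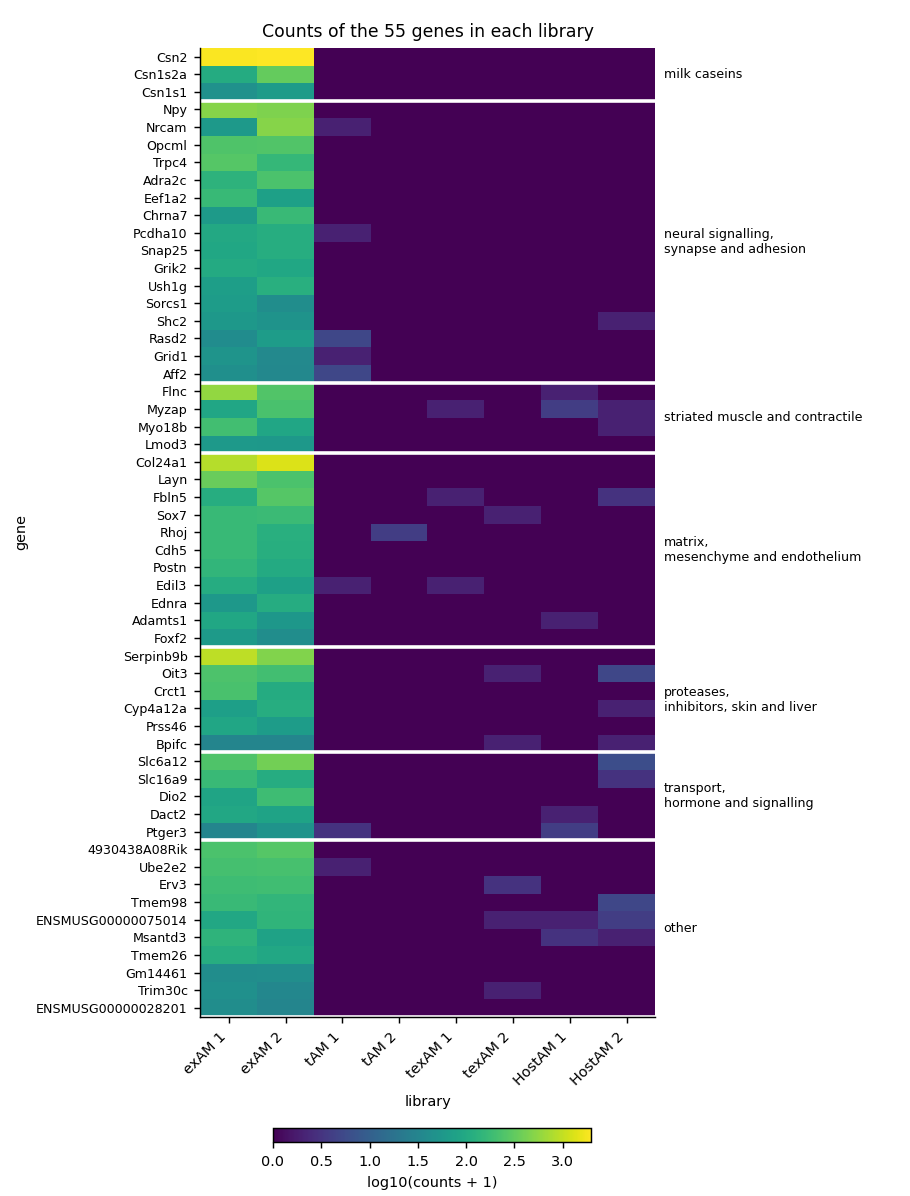
Colour gives log10(counts + 1) for each of the 55 genes (rows, grouped by known function) in each of the 8 libraries (columns). Both exAM columns are filled from 31 to 1996 counts, as the choice of genes requires, and the lung columns hold scattered single counts, at most 5 for any gene and library.

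The casein genes gave the highest level. Csn2, which encodes beta-casein, had 1906 counts in exAM 1 and 1996 in exAM 2, and 0 in each of the 6 lung libraries. Its mean of 317.5 ± 13.2 CPM (SD, n = 2) ranked 816th among the rows of the table in exAM, and 68th per kb of transcript at 238.9 CPM per kb. That is close to Lyz2, the lysozyme of macrophages, at 262.1 CPM per kb, and to Chil3, a chitinase-like protein abundant in alveolar macrophages, at 226.5 CPM per kb. Against a floor of 3 counts over the 6 lung libraries, Csn2 was at least 5577-fold higher in exAM, a bound for counting error only. Csn1s2a, an alpha-S2 casein, had 105 and 334 counts in exAM 1 and exAM 2 and 0 in lung. Csn1s1, the alpha-S1 casein, had 46 and 64 counts and again 0 in lung. The 3 caseins did not vary together between the exAM pools: Csn1s2a was 2.86-fold higher in exAM 2 by CPM, Csn1s1 was 1.25-fold higher, and Csn2 was 0.943 of its exAM 1 level.

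Comparisons at the level of Csn2 meet a limit of the count table. No gene in any library exceeded 1.98 counts per base of its longest transcript. Csn2 stood at 1.43 and 1.50 counts per base, near Lyz2 at 1.58 to 1.62 and Cd68 at 1.82 to 1.86 over all 8 libraries. Among 268 genes with 1 to 2 counts per base, the median ratio of exAM 2 to exAM 1 counts was 0.998, whereas it was 1.14 among 3816 genes with 0.01 to 0.1 counts per base, beside a ratio of library totals of 1.09. Counts near the limit therefore followed depth less than lower counts did, and the near-equal Csn2 counts of the pools have to be read with that. The same holds for its rank per kb and its closeness to Lyz2 and Chil3, which lie in the same range. These do not show that the transcripts were equally abundant. What sets the limit was not tested. Csn2 was the only one of the 55 genes above 1 count per base, Npy was next at 0.847, and 52 lay at or under 0.5.

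The caseins are neighbours on chromosome 5 of GRCm38. Csn1s1 (chr5:87666208-87682578, + strand) ends 10046 bases from Csn2 (chr5:87692624-87699630, - strand), and Csn1s2a (chr5:87774567-87788797, + strand) begins 74937 bases beyond it. Genes beside them were at 0 in exAM. Csn1s2b, Prr27, Odam and Csn3, the kappa-casein gene, had 0 counts in all 8 libraries, as had Ugt2a2 and Sult1e1 on the other side. Sult1d1 and Sult1b1, sulfotransferase genes there, had 0 counts in exAM and up to 15 and 5 in a lung library. Milk genes elsewhere in the genome did not accompany the caseins. Lalba, the alpha-lactalbumin of lactose synthesis, had 0 counts in all 8 libraries, and Wap, whey acidic protein, had 0 and 4 in exAM beside 0 to 10 in lung. Of 11 milk proteins listed, 6 were at 0 in both exAM libraries (Btn1a1, Csn1s2b, Csn3, Glycam1, Lalba and Odam), 3 were the caseins above, and none other had enough counts to be tested. Zeros were common in the table: of 37310 rows, 22497 were counted in any library and 15150 in both exAM libraries. Numbers of listed genes at 0, here and below, are a description to be read beside that. Among genes known for casein control, chosen after their values were seen, Prlr, the prolactin receptor, had 12 and 4 counts in exAM and 0 to 8 in lung. Elf5, the transcription factor of alveolar mammary cells, had 0 in exAM. Stat5a, which acts downstream of that receptor, had 187 and 218 counts in exAM and 1041 to 1278 in lung, so its counts were lower in both exAM libraries than in every lung library. Stat5b, which acts beside it, had 505 and 849 counts in exAM and 729 to 993 in lung, or 108.8 ± 31.4 CPM in exAM and 88.4 ± 5.34 CPM in tAM (SD, n = 2), and was not called in either direction (log2 fold change 0.30, adjusted p 0.205 by edgeR).

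The start regions of both casein genes below show the spaced half-sites that the STAT5 class of factors is known to bind. Each run is 160 bases around the start site in RefSeq (GRCm38.p6), 5′ to 3′ on the strand of the gene, and capitals mark TTCNNNGAA, which reads the same on both strands. The Csn2 run is chr5:87699416-87699575 (- strand), with the motif from base -93 to -85 relative to the start, and the Csn1s1 run is chr5:87666058-87666217 (+ strand), with the motif from -100 to -92.
Csn2: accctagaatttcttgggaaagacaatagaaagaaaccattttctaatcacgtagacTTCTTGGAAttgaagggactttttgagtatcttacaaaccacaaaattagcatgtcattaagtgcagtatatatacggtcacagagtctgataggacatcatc
Csn1s1: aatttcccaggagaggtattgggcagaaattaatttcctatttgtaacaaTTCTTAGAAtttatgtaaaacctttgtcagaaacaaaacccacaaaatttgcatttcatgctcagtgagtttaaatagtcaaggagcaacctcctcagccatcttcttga
Csn1s2a also held the motif, from base 21 after its start. Across the promoter windows of 300 bases available for 41 of the 55 genes, 5 of 51 windows (9.80%) held TTCNNNGAA, against 8.30% of all 32851 promoter windows, so its share over the whole set was near that of promoters at large. The other windows belonged to 4930438A08Rik and Trim30c. A match is a description of these letters and not of a bound site.

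**Figure D2:**
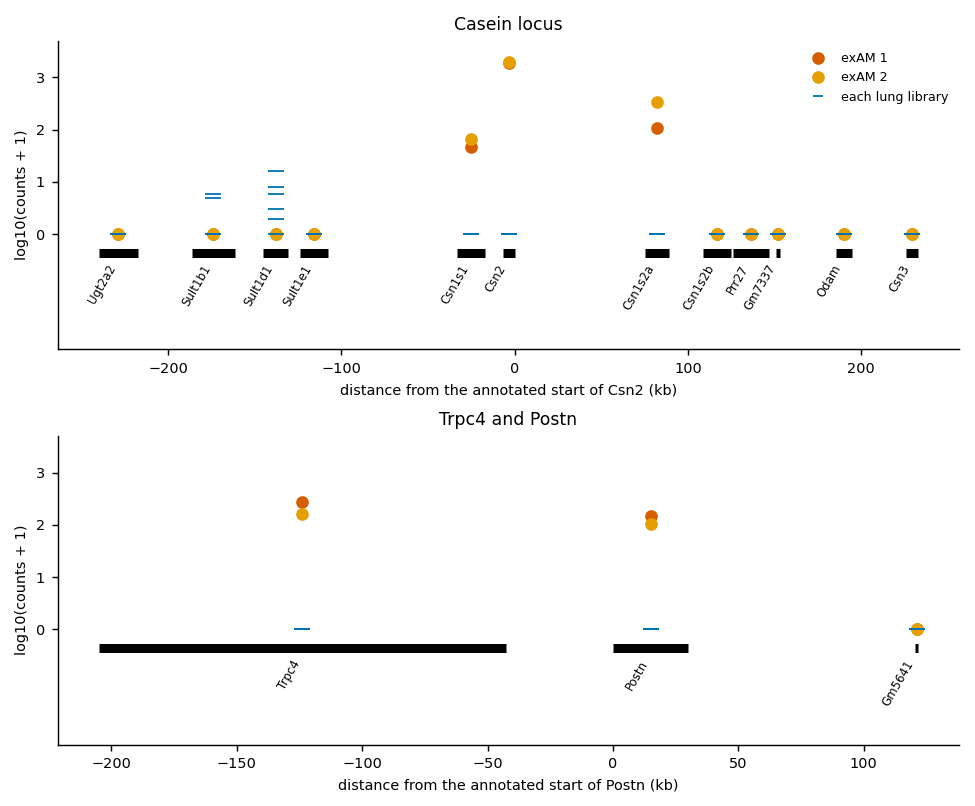
Counts in each library as log10(counts + 1) over genes placed by distance in kb from the annotated start of Csn2 (top) or Postn (bottom), with black bars for gene spans. In the top panel the 3 caseins alone rise above 0 in exAM (orange), while Sult1d1 and Sult1b1 hold a few counts in lung libraries (blue dashes) and 0 in exAM.

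Neural genes were the most numerous group, and 10 of the 16 had 0 counts in every lung library. Npy, neuropeptide Y, a transmitter of sympathetic and brain neurons, led them with 504 and 455 counts in exAM 1 and exAM 2 and 0 in all 6 lung libraries (78.4 ± 11.4 CPM, SD, n = 2). Per kb of transcript it stood at 138.4 CPM per kb, 337th in exAM. Its receptor gene Npy1r had 3 and 0 counts in exAM and 0 in lung, which is at the floor of 3 counts. Of 38 neuropeptide, granin and processing genes listed, 28 were at 0 in both exAM libraries, among them Chga, Pcsk1, Vip and Sst. Outside Npy, 6 of the list were tested in exAM against tAM. Over all tested genes, 21.5% were called higher and 23.2% lower. By edgeR 0 of the 6 were called higher, 0 were higher at an unadjusted p under 0.05, 0 were by DESeq2, and 1 was called lower. That gene was Gal, the neuropeptide galanin, with 498 and 509 counts in tAM and 1 and 1 in exAM (log2 fold change -8.42, adjusted p 3.79e-07 by edgeR). Gal passed the filter through lung libraries alone, which set its direction, so the p-value describes these counts only. The neuropeptide genes thus differed: Npy was counted in exAM and not in lung, and Gal was counted in all 6 lung libraries (344 to 509) and hardly in exAM.

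Genes of receptors and release followed at lower levels. Snap25, the SNARE protein that drives vesicle fusion at synapses, had 92 and 114 counts in exAM. Chrna7, the alpha-7 nicotinic acetylcholine receptor subunit, also known as a receptor on macrophages, had 62 counts in exAM 1 and 173 in exAM 2, 2.51-fold higher in exAM 2 by CPM. All 6 lung libraries were at 0 for both. Adra2c, the alpha-2C adrenergic receptor, had 135 and 234 counts, and Grik2, a kainate-type glutamate receptor subunit, had 102 and 91, each with 0 in lung. Grid1, a delta-type glutamate receptor subunit, had 50 and 35 counts in exAM and 1 in tAM 1. Trpc4, a cation channel of the TRPC family that opens downstream of receptors, had 272 and 159 counts and 0 in lung.

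The adhesion molecules included the gene that differed most between the pools. Nrcam, a neural adhesion molecule of the L1 family, had 60 counts in exAM 1 and 501 in exAM 2, with 1 count in tAM 1 and 0 in the other lung libraries. By CPM it was 7.52-fold higher in exAM 2, and its mean of 43.8 ± 47.4 CPM (SD, n = 2) had an SD above the mean. Opcml, a GPI-anchored neural adhesion molecule, was even, with 245 and 251 counts and 0 in lung. The row labelled Pcdha10, a clustered protocadherin by which neurons tell themselves apart, had 96 and 114 counts in exAM and 1 in lung. It shares 53.4% of its exonic bases with each of 13 other annotated genes of that cluster, so which of them these counts belong to is uncertain. Sorcs1, a sorting receptor of neurons, had 66 and 40 counts.

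Intracellular genes of neurons completed the group. Eef1a2, the form of an elongation factor found in neurons and muscle, had 168 and 74 counts and was lower in exAM 2, at 0.397 of its exAM 1 CPM. Rasd2, a small GTPase of striatal neurons, had 39 and 65 counts in exAM and 4 in tAM 1. Shc2, an adaptor of the SHC family found in neurons, had 56 and 48. Aff2, a nuclear protein of brain and the only one of the 55 genes on the X chromosome, had 43 and 34 in exAM and 4 in tAM 1. Ush1g, a scaffold of inner ear hair cells, had 70 and 119. These are low counts: Aff2 averaged 6.31 CPM and Npy 78.4.

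Muscle genes were few but included one of the highest. Flnc, the filamin of striated muscle that anchors actin at the Z-disc and membrane, had 581 counts in exAM 1 and 253 in exAM 2, and 1 count in HostAM 1 alone among lung libraries. Its level was 99.6 CPM in exAM 1 and 39.1 CPM in exAM 2. Myo18b, an unconventional myosin of striated muscle, had 201 and 89 counts and showed nearly the same ratio between pools, 0.399 by CPM beside 0.392 for Flnc. Lmod3, a leiomodin that nucleates actin in skeletal muscle, had 60 and 57, and Myzap, a protein of the heart's intercalated disc, had 88 and 222. The defining factors of skeletal muscle were missing: Myod1, Myog, Myf5 and Pax7 had 0 counts in all 8 libraries. Ckm, muscle creatine kinase, had 1 and 1 count in exAM, and Acta1, skeletal actin, 8 and 9.

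Matrix genes included the second-highest of the 55. Col24a1, a fibrillar collagen chain, had 844 counts in exAM 1 and 1320 in exAM 2 and 0 in all 6 lung libraries (174.3 ± 41.8 CPM, SD, n = 2). It was at least 3061-fold higher than the floor of 3 counts over lung. The collagens of ordinary connective tissue did not accompany it. Col1a1, Col1a2 and Col3a1, the main fibrillar chains of fibroblasts, had 0 counts in both exAM libraries, and of 41 collagen genes listed 18 had. Fbln5, a fibulin of elastic fibres, had 113 and 266 counts in exAM and 3 in lung. Postn, periostin, a matrix protein of periosteum and activated fibroblasts, had 146 and 104 and 0 in lung. Postn (chr3:54361109-54391037) lies 42638 bases beyond Trpc4 (chr3:54156035-54318471) on the same strand, and these with the caseins were the only pairs among the 55 genes within 100 kb of each other. Layn, a hyaluronan-binding membrane protein, had 353 and 230 counts and 0 in lung. Edil3, an integrin-binding matrix protein, had 111 and 75, and Adamts1, a secreted protease that cuts proteoglycans, had 92 and 55.

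Endothelial and mesenchymal regulators were counted in exAM, while many listed endothelial markers were at 0 there, most of these in lung as well. Cdh5, VE-cadherin, the junction protein that defines endothelial cells, had 167 and 115 counts in exAM and 0 in every lung library (23.2 ± 7.70 CPM, SD, n = 2). Sox7, a transcription factor of endothelium, had 166 and 177 counts in exAM and 1 in texAM 2. Rhoj, a small GTPase of endothelium, had 164 and 119 in exAM and 3 in tAM 2. Of 12 endothelial markers listed, 7 had 0 counts in both exAM libraries (Ramp2, Tek, Sox17, Tie1, Erg, Cldn5 and Emcn), and 6 had 0 in all 8. Pecam1, CD31, had 7 and 2 counts in exAM and 5 to 66 in lung, and Kdr, a VEGF receptor, had 11 and 17 in exAM and 0 to 4 in lung. The summed level of the list was 239.8 to 239.9 CPM in exAM and 242.7 to 243.5 CPM in tAM, nearly all of it Vwf, with 1213 and 1416 counts in exAM and 1911 to 2935 in lung. The part of endothelial cells in the Cdh5 counts was not tested beyond these values. Foxf2, a forkhead factor of mesenchyme, had 61 and 40 counts in exAM, and Ednra, the endothelin receptor of smooth muscle, had 57 and 110, both with 0 in lung.

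Most listed fibroblast markers were at 0 in exAM, and those tested went both ways. Of 16 listed, 10 had 0 counts in both exAM libraries, including Col1a1, Lum, Dpt and Pdgfrb. Of the 5 tested other than Postn, 3 were called higher in exAM than in tAM and 1 lower, beside 21.5% and 23.2% of all tested genes. The median log2 fold change was 5.23, or 4.13 with genes at 0 in a group set at the floor of 3 counts. Pdgfra, a receptor of fibroblasts that is not among the 55 genes, had 114 and 269 counts in exAM, 10 in HostAM 2 and 0 elsewhere. The DESeq2 Wald test did not call it. Dcn, the proteoglycan decorin, had 0 counts in tAM, 1 in texAM 1, 1 in HostAM 2 and 18 and 21 in exAM. Its call was lost when either exAM or either tAM library was left out. Pdgfra and Dcn passed the filter for testing through exAM alone, which set their direction. The 3 higher of 5 and the median therefore cannot be compared with all tested genes. The third was Col6a3, a collagen VI chain, with 127 and 75 counts in exAM and 0 to 24 in lung. The summed fibroblast list came to 69.8 to 72.6 CPM in exAM, 41.3 to 69.7 in tAM, 153.4 to 155.4 in texAM and 21.7 to 41.9 in HostAM. Its high level in texAM was Thy1, also a marker of T cells, with 1421 and 1326 counts there and 1 and 1 in exAM. Thy1 was the marker called lower, with 337 and 548 counts in tAM. Of 13 neuronal and glial markers, 7 had 0 counts in both exAM libraries, and of 14 lymphocyte markers 9. The part of other cell types in the results on the 55 genes was not tested.

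Protease inhibitors, skin and liver genes made a group that was high in exAM 1. Serpinb9b, an intracellular serine protease inhibitor of the clade B serpins, had 924 counts in exAM 1 and 475 in exAM 2 and 0 in all 6 lung libraries, or 158.5 and 73.3 CPM. Crct1, a small cysteine-rich protein of cornified epithelium, had 225 and 106, also with 0 in lung. Both were lower in exAM 2, at 0.463 and 0.424 of the exAM 1 CPM. Prss46, a serine protease, had 89 and 66 counts and 0 in lung, and Bpifc, a lipid-binding protein of the BPI family, had 31 and 31, the lowest of the 55. Oit3, a zona pellucida domain protein of liver, had 236 and 200 counts in exAM, 4 in HostAM 2 and 1 in texAM 2. Cyp4a12a, a cytochrome P450 of liver and kidney, had 71 and 113 counts in exAM and 1 in HostAM 2. Its near-identical neighbour Cyp4a12b had 58 and 55 counts in exAM and 1 to 64 in lung, so how reads were divided between the pair makes the Cyp4a12a value uncertain.

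Transport and hormone genes followed. Slc6a12, a transporter of the osmolyte betaine and of GABA, had 242 and 394 counts in exAM and 5 in HostAM 2, the only lung library with any. Slc16a9, of the monocarboxylate transporter family, had 171 and 109 in exAM and 2 in HostAM 2. Dio2, the deiodinase that makes active thyroid hormone, had 83 and 185 counts in exAM and 0 in lung. Dact2, an antagonist of WNT and TGF-beta signalling, had 95 and 81. Ptger3, a receptor for prostaglandin E2, had 31 and 49 counts in exAM, 2 in tAM 1 and 3 in HostAM 1. The start regions of Col24a1 and Dio2 were the only ones among the 51 windows to hold TGACGTCA, the full cyclic AMP response element, which also reads the same on both strands.
Col24a1: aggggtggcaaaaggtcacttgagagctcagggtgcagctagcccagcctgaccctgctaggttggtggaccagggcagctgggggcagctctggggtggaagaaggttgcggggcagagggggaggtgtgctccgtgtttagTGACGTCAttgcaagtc
Dio2: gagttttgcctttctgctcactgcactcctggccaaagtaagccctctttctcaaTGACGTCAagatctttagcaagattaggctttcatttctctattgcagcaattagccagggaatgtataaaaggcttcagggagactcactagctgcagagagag
The runs are RefSeq GRCm38.p6 sequence, 5′ to 3′ on the gene's strand, from chr3:145292322-145292481 (+ strand) and chr12:90739029-90739188 (- strand), with the motif in capitals. It lies from base -7 to 1 in Col24a1 and from -95 to -88 in Dio2. The 2 windows were 3.92% of 51, beside 1.79% of all promoter windows and 3.04% of those of protein-coding genes counted in both exAM libraries.

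The remaining 10 genes have less defined roles. Ube2e2, a ubiquitin-conjugating enzyme, had 209 and 220 counts in exAM and 1 in tAM 1. Tmem98 and Tmem26, transmembrane proteins, had 171 and 148, and 114 and 95, and Tmem98 had 4 counts in HostAM 2. Msantd3, with a SANT domain of the MYB type, had 138 and 79, and Trim30c, of the TRIM30 family, had 45 and 33. The protein-coding gene 4930438A08Rik had 234 and 269 counts and 0 in lung, and the long non-coding RNA Gm14461 had 40 and 42. Erv3, an endogenous retroviral sequence, had 186 and 194, and ENSMUSG00000075014, the predicted gene Gm10800, had 95 and 144. Both are repeat-like, so their counts depend on how reads with several matches were treated, which is not given in the sources used here. ENSMUSG00000028201, with 41 and 31 counts, had no symbol and no entry in GENCODE M21.

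Levels of the 55 genes differed more between the exAM pools than those of other genes, a measure that the choice of genes did not use directly. The median absolute log2 ratio of CPM between exAM 1 and exAM 2 was 0.58 for the 55 genes. It was 0.19 over all 9883 genes with at least 30 counts in both, and 0.26 over 4605 other genes with summed exAM counts no higher than the 90th percentile of the 55. More than 2-fold differences were found for 11 of the 55 (20%), beside 1.89% of all such genes and 3.24% of the 4605. They went both ways, with Flnc, Eef1a2, Myo18b, Crct1 and Serpinb9b higher in exAM 1 and Nrcam, Csn1s2a, Chrna7, Myzap, Fbln5 and Dio2 higher in exAM 2. Nrcam alone passed 4-fold. Others were even, Opcml, Ube2e2, 4930438A08Rik, Erv3 and Sox7 among them, each within 10% of equal. With 1 library per pool, the spread between cultures and the spread between library preparations cannot be told apart.

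**Figure D3:**
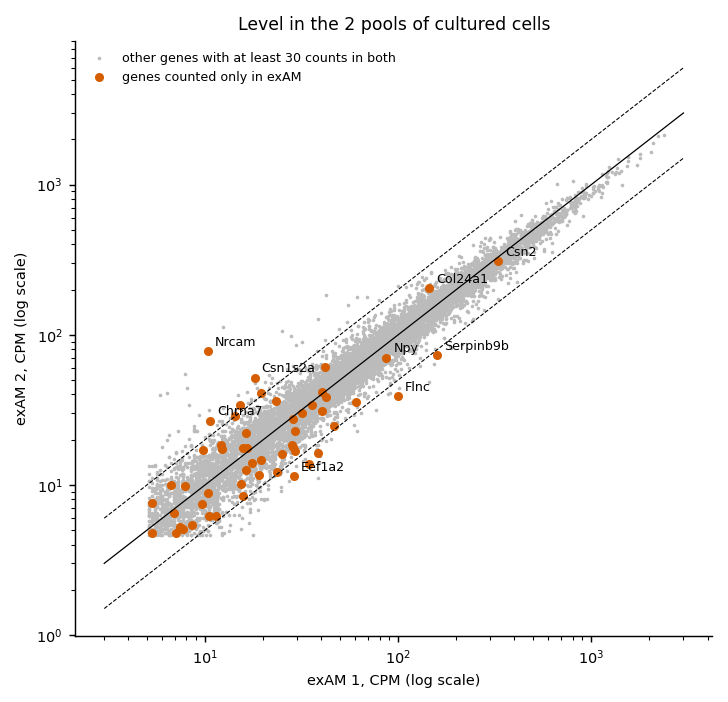
Level in exAM 1 (x) and exAM 2 (y), in CPM on log scales, for 9883 genes with at least 30 counts in both, with the 55 genes in orange, the solid line at equality and dashed lines at 2-fold. The orange points spread wider than the grey ones at similar levels, with Nrcam farthest off and Csn2 on the line.

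Counts left in the lung libraries were few and uneven. The 55 genes summed to 66 counts over 6 libraries, where 28 genes had none, 12 had 1 and 5 had 5. By library the sums were 15 in tAM 1 and 3 in tAM 2, 3 in texAM 1 and 7 in texAM 2, and 12 in HostAM 1 and 26 in HostAM 2. By group they were 18 counts in tAM, 10 in texAM and 38 in HostAM. The rule capped each gene at 5 counts over these same libraries, so these sums are a description and the groups are not compared on them. A gene with more counts in any 1 group was removed by the cap, as were Bex1, with 6 counts in texAM 1, and Tmeff1, with 3 and 10 in texAM. The sums rested on few genes: Aff2 and Rasd2 gave 8 of the 15 counts in tAM 1, and Rhoj gave all 3 in tAM 2. In no group taken from lung did the same rule find a gene. With the group's own 2 libraries at 30 counts or more and the other 6 at a sum of 5 or less, the count was 0 for tAM, for texAM and for HostAM, among 10693, 11114 and 10744 genes with at least 30 counts in both libraries. The other 6 libraries held the other lung groups, of the same sorted cell type. These counts of 0 were thus nearly fixed in advance and are no control for exAM. Genes counted in lung and not in exAM existed: Epcam had 893 to 1443 counts in lung libraries and 0 in exAM.

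**Figure D4:**
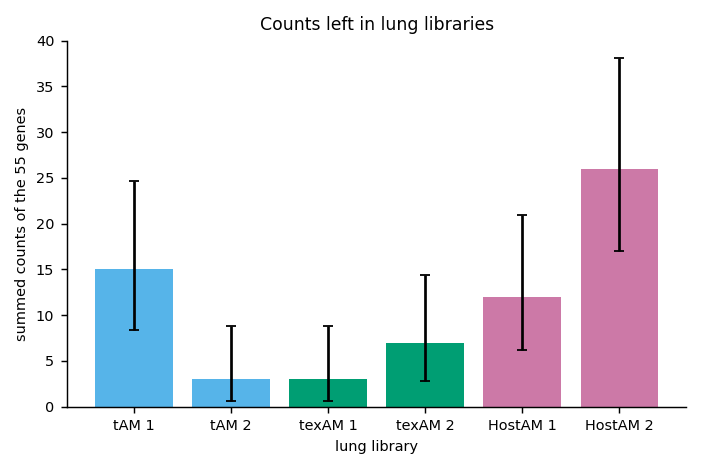
Bars give the summed counts of the 55 genes in each of the 6 lung libraries, with exact 95% Poisson intervals for counting error only; each gene's sum over them was capped at 5 by the rule. HostAM 2 is highest at 26 and tAM 2 and texAM 1 lowest at 3 each, while the exAM libraries, not drawn, held 10792 and 11197.

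The limits of the rule cut through genes of the same kind. At its lung limit, Slc6a12, Oit3, Myzap, ENSMUSG00000075014 and Ptger3 had 5 counts over lung. Just outside, Bex1, a small adaptor protein of neurons, had 594 and 830 counts in exAM and 6 in texAM 1 alone. Also outside, with 6 or 7 counts, were Fam124a (225 and 243 in exAM), Gpr176 (64 and 53), C1ql3 (50 and 40) and Pknox2 (230 and 367). At the exAM limit, Bpifc, ENSMUSG00000028201, Ptger3, Trim30c and Aff2 were lowest inside, at 31 to 34 counts in their lower library. Ccdc85a missed it with 29 and 167 counts and 0 in lung, and Uchl1, a ubiquitin hydrolase of neurons, with 65 and 24 and 0 in lung. Igf2bp1, Snai2 and Hcn3 had 29, 26 and 26 in their lower exAM library. Among the Y-linked genes left out, Ddx3y had 55 and 59 counts in exAM, Kdm5d 22 and 20, Uty 20 and 15 and Eif2s3y 8 and 10, and the lung libraries held 0 except 2 counts of Uty in HostAM 2. Y-linked transcripts were thus counted in both exAM pools and hardly in the lung pools. They were low: Ddx3x, the X-linked relative of Ddx3y, stood far higher, at 583.5 and 480.7 CPM in exAM 1 and exAM 2. The share of cells with a Y chromosome in the exAM pools was not measured. This difference in Y-linked counts goes with culture, so the part of male cells and of culture in the 55 genes cannot be told apart and was not tested.

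In the genome the 55 genes were scattered over 18 chromosomes, and 53 of the 54 found in GENCODE M21 were protein coding. Their median gene span was 25.7 kb and median longest transcript 3224 bases, beside 14.4 kb and 2332 bases over 21147 genes counted in any library and 23.7 kb and 3107 bases over 12375 protein-coding genes counted in both exAM libraries. They were thus close in length to the protein-coding genes of these cells. Of the promoter windows, 18 of 51 (35.3%) were CpG-rich, meaning at least 50% G and C and an observed over expected CpG ratio of at least 0.6. This was close to the 33.5% of all promoter windows and lower than the 64.2% of 12678 windows of protein-coding genes counted in both exAM libraries. The 3 casein windows held little or no CpG, at a ratio of 0 for Csn1s1 and Csn1s2a and 0.179 for Csn2, whereas Chrna7, Sorcs1 and Ube2e2 exceeded 1. Overlap with a strongly counted gene was not seen. Exonic bases were shared with another annotated gene by 12 of the 55 genes, at most 12.7% of a gene with any 1 other gene apart from the Pcdha10 row, and no overlapping gene with a row had more than 3 counts in an exAM library.

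Relatives of the 55 genes were counted by family. Beside the background of 21.5% called higher and 23.2% lower, and a median log2 fold change of -0.09 over all tested genes, the clade B serpins stood highest. Of 8 tested other than Serpinb9b, 7 were called higher in exAM than in tAM and 0 lower by edgeR, with a median log2 fold change of 2.81. None was lower at an unadjusted p under 0.05 or by DESeq2. Serpinb6b had 41 and 85 counts in tAM, 924 and 984 in exAM, and a log2 fold change of 4.34 (adjusted p 7.21e-04 by edgeR). Serpinb8 had 12 and 1 counts in tAM and 207 and 91 in exAM, with a log2 fold change of 4.97 (adjusted p 9.45e-04 by edgeR). Both encode intracellular protease inhibitors and were counted in every lung library. Serpinb1c had 0 and 4 counts in tAM and 66 and 47 in exAM, and passed the filter through exAM alone. Its call was lost without exAM 1. Other lettered Serpinb9 genes were far lower than Serpinb9b: Serpinb9g had 11 and 6 counts in exAM and 0 in lung, and Serpinb9c, Serpinb9e and Serpinb9f had 0 or 1 in each exAM library.

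Neuronal adhesion, cytoskeleton and synapse genes went both ways. Of 17 tested other than Nrcam and Snap25, 4 were called higher and 5 lower in exAM, with a median log2 fold change of -1.88. Flrt2, an adhesion and guidance protein, had 1 and 7 counts in tAM, 0 and 1 in texAM, 0 and 0 in HostAM and 1315 and 1359 in exAM. Its log2 fold change over tAM was 8.77. Tmeff1, a transmembrane protein of brain, had 0 counts in both tAM libraries, 3 and 10 in texAM, 1 and 1 in HostAM and 528 and 311 in exAM. Flrt2, Tmeff1 and Bex1, described at the rule's limit, passed the filter through exAM alone, which set their direction. In the other direction Syp, the synaptic vesicle protein synaptophysin, had 345 and 248 counts in tAM and 19 and 19 in exAM, with a log2 fold change of -3.52 (adjusted p 1.10e-04 by edgeR). Cntn2, a neural adhesion molecule, had 107 and 35 in tAM and 0 in exAM (adjusted p 4.38e-04 by edgeR). It passed the filter through lung libraries alone, which set its direction, so the p-value describes these counts only. Lrrtm2, a synaptic adhesion protein, fell by 1.99 on the log2 scale (adjusted p 0.00344 by edgeR). Axon guidance genes, none of them among the 55, gave 8 higher and 11 lower of 32, led upward among calls held in every setting by Plxna2, a semaphorin receptor, from 39 and 81 counts in tAM to 743 and 593 in exAM.

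Collagens other than Col24a1 gave 2 higher and 6 lower of 17 tested, with a median log2 fold change of -0.35 (-0.86 with genes under the floor of 3 counts in both groups left out). Col6a3, a chain of beaded filament collagen, had 0 and 7 counts in tAM, 8 to 24 in the other lung libraries and 127 and 75 in exAM (log2 fold change 5.23, adjusted p 0.00151 by edgeR). Col5a1 had 2 and 0 counts in tAM and 36 and 27 in exAM, and passed the filter through exAM alone. Its call was lost without exAM 1 and without tAM 2. Col20a1, a collagen of the FACIT type, fell from 100 and 147 counts in tAM to 2 and 4 in exAM (log2 fold change -4.91, adjusted p 4.48e-04 by edgeR). It passed the filter through lung libraries alone, which set its direction. Muscle and neuromuscular junction genes other than Flnc gave 1 higher and 5 lower of 14. The higher one was Dok7, an adaptor of the neuromuscular junction, with 8 counts in tAM 1, 0 in the other 5 lung libraries and 245 and 255 in exAM. It passed the filter through exAM alone, and the DESeq2 Wald test did not call it.

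Transporters of the SLC6 family other than Slc6a12 gave 2 higher and 1 lower of 4 tested. Slc6a8, the creatine transporter, had 43 to 131 counts in the 6 lung libraries and 2964 and 2887 in exAM, with a log2 fold change over tAM of 6.39 (adjusted p 4.96e-08 by edgeR). Slc6a6, the taurine transporter, had near-equal counts, 9918 and 9841 in tAM and 10437 and 9812 in exAM. Its log2 fold change of 0.47 came with the scaling of these counts to the smaller exAM libraries. Slc6a4, the serotonin transporter, fell by 2.01 on the log2 scale. Matrix metalloproteinases and adamalysins other than Adamts1 gave 8 higher and 7 lower of 19. Mmp13, a collagenase, had 0 to 4 counts in each lung library and 3632 and 2304 in exAM (log2 fold change over tAM 11.81), more than any of the 55 genes. Its lung sum of 14 counts kept it outside the rule, and it passed the filter through exAM alone. Adam19, an adamalysin, went the other way, from 307 and 588 counts in tAM to 3 and 3 in exAM.

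Lists of other tissues and of signals gave mixed counts. Of 10 keratins tested by edgeR 0 were called higher and 6 lower, of 6 germ cell genes 0 and 1 (in both lists 0 were higher at an unadjusted p under 0.05 and 0 by DESeq2), of 24 cytokines 4 and 13, and of 24 growth factors and morphogens 7 and 7. Markers of lung epithelium gave 1 higher and 13 lower of 16, with 10 at 0 in both exAM libraries. Lymphocyte markers gave 0 higher and 6 lower of 8. The part of other cells in the lung libraries in the lower keratins and cytokines was not tested. Homeobox genes gave 4 higher and 3 lower of 8, with 50 of the 79 listed at 0 in both exAM libraries. Of 36 placental genes only Psg18 was tested, with 39 and 21 counts in exAM and 0 in all 6 lung libraries. It passed the filter through exAM alone, which set its direction. Its call was lost by the DESeq2 Wald test and without exAM 1. It missed the rule in exAM 2. Osteoclast and multinucleated macrophage genes, a fate of the macrophage lineage, gave 12 higher and 1 lower of 18, with a median log2 fold change of 0.97. Their leading calls, Oscar, Ocstamp and Dcstamp, had 9 to 73 counts in exAM, and each was lost without exAM 1. All 3 passed the filter through exAM alone, which set their direction, and they are among the 12.

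**Figure D5:**
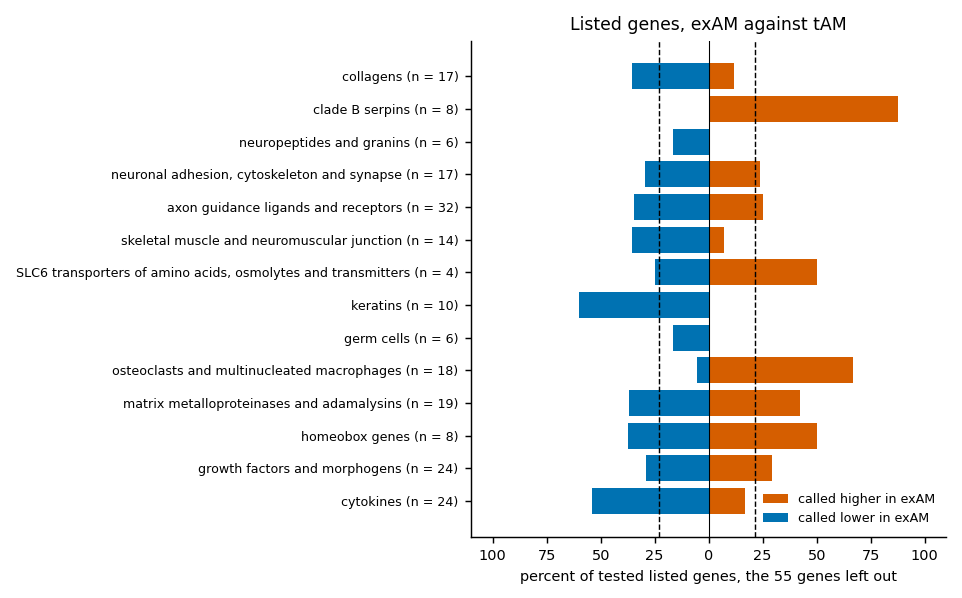
Percent of tested genes of each list called higher (orange, right) or lower (blue, left) in exAM against tAM, with the 55 genes left out, the number tested in brackets and lists of fewer than 4 tested genes not drawn. Dashed lines mark the shares over all tested genes, 21.5% higher and 23.2% lower, and clade B serpins reach farthest to the right.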

How the data were processed

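The deposited values were whole-number counts of reads per gene, which the authors made with Bowtie, HTSeq 0.6.1 and R 3.3 on mm10 (GRCm38), per the submitters' processing notes. Aligner settings, strandedness and the treatment of reads with several matches are not given in the sources used here. Amplified cDNA was made from total RNA with a mix of random and polyT primers, per the labels' protocols. The 8 columns were matched to samples by name, with the column prefix teAM taken as texAM.

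Members were found on unscaled counts. Levels are CPM with TMM effective library sizes, given with the SD over 2 pools. For the rest, exAM was compared with tAM with edgeR 4.0.16 (glmQLFit, robust, 1 coefficient per group, all 8 libraries, 4 residual degrees of freedom) in R 4.3.3, after filterByExpr at its minimum of 10 counts left 14537 genes. Benjamini-Hochberg adjusted p-values were called at 0.05, and the code was tested on simulated data. All 55 genes passed that filter, through exAM alone, and are not reported as calls. Named genes outside the 55 that passed through exAM alone are given without p-values, but counts of called genes in the lists include them. Genes near 0 in exAM passed through lung libraries. The filter set their direction too, so their p-values describe the counts only. P-values measure the spread between pools, which may be technical.

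The genes and lists were chosen with earlier results of these data known. Genes named were the members (those highest in exAM, in a list, at the extremes of the exAM ratio, near another member or near a limit with fuller values) and listed genes called in exAM against tAM, up to 3 per direction, given here for families of members. Some of these are given as counts only. Symbols are those of the table. Positions and lengths (longest protein-coding transcript) are from GENCODE M21, which held 54 of the 55. A fold against lung uses a floor of 3 counts over 6 libraries. RefSeq promoter windows run from 250 bases before to 50 after a start. DESeq2 1.42.0 was an alternative.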

Additional observations from a re-analysis of the deposited data

How the results depend on the processing

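The number of genes the rule finds depends on its limits: 55 became 23 with a minimum of 100 counts in both exAM libraries and 28 with a summed lung count of 0, and was 43 to 69 under the other limits and scaling tried. Leaving out 1 library gave 58 to 71. Genes called in exAM against tAM, 3124 higher and 3378 lower, ranged from 2234 to 3347 higher and from 2293 to 3578 lower when 1 library was left out, and the DESeq2 Wald test gave 3160 and 3318. Scaling by library size without TMM called 2250 higher and 4274 lower, which took the share of calls that were higher from 48.0% to 34.5% and the median log2 fold change of all tested genes from -0.09 to -0.29. A replicate block, the replicate number as a term, called 2924 higher and 3158 lower. Samples with the same number did not deviate together (correlations of -0.061 to 0.0089 over pairs of groups), so the number was not taken as a pairing. Of 480 counts of listed genes recomputed under 15 settings, 444 stayed within 1.5 times. Counts that stayed at 0 are among the 444. Those of the milk protein list, with 0 genes tested outside the 55, stayed at 0 in the settings and could hardly move. With 2 pools per group, levels near 30 counts are not precise, and a count of 0 over the lung libraries allows up to 3 counts.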
